A study of Mus musculus with 6 samples.

Results

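The genes described here encode RNA polymerases I and III, the factors that place them on their genes, and the general transcription factors of RNA polymerase II. They were chosen by symbol from the GENCODE annotation of the mouse genome (GRCm38): protein-coding genes named Polr1a to Polr1e, Polr3a to Polr3k and Polr3gl, Gtf2 and Gtf3 genes, TATA-binding protein (Tbp) with its paralogs Tbpl1 and Tbpl2, and the TBP-associated factors (Taf genes). The rule found 61 of 21853 protein-coding genes. It used names alone, so it also took the 3 genes of the TFII-I family (Gtf2i, Gtf2ird1 and Gtf2ird2), whose proteins bind particular DNA sequences, and Taf15, which encodes an RNA-binding protein of the FET family.

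RNA polymerase I transcribes the genes of the large ribosomal RNAs, and RNA polymerase III those of transfer RNAs, 5S ribosomal RNA and other small RNAs. RNA polymerase I is brought to its promoters with SL1, which holds TBP and the TAFs Taf1a to Taf1d, whereas RNA polymerase III is brought to its genes by TFIIIB. At transfer RNA genes TFIIIC recruits TFIIIB from sites inside the gene, and at 5S ribosomal RNA genes it does so with TFIIIA. At protein-coding genes, TFIID (TBP with its TAFs), TFIIA, TFIIB, TFIIE, TFIIF and TFIIH assemble with RNA polymerase II at the start site. The genes of all these proteins are themselves transcribed by RNA polymerase II, and H3K27ac, acetylation of lysine 27 of histone H3, is a mark of active promoters and enhancers.

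H3K27ac was profiled by ChIP-seq in E14Tg2A Rosa26-Cre Oct4-IRES-Puro cells, an E14 line of mouse embryonic stem cells (mESCs), grown with LIF, PD0325901 and CT-99021. The 6 samples were 2 replicates each of control cells given DMSO, of cells given NVP-2, an inhibitor of the kinase CDK9, at 100 nM for 120 min, and of cells given actinomycin D (ActD), which intercalates into DNA, for 120 min. The labels give the ActD dose as 800 nM and, in the protocol, as 1 µg/ml. Human HEK293 chromatin was added to every sample as a spike-in. The values below come from the authors' list of 22973 H3K27ac peaks in control cells, pooled over both control replicates. The list gives positions without heights or scores, so there are no values per replicate, no replicate error and no test between samples, and the depth behind a peak is unknown. Per the authors' reporting summary, the control libraries differed in their number of unique reads. How this bears on the list was not tested. The NVP-2 and ActD samples were not analysed here. Of 6 genes that define mESCs, the promoters of Pou5f1, Sox2, Nanog and Zfp42 held a listed peak. Esrrb held one at another isoform, and the nearest listed peak to Klf4 was 14748 bp away. Whether a promoter without a listed peak lacked the mark in the cells was not tested.

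A promoter was called marked when a control peak overlapped the 1 kb on either side of the transcription start site (TSS) by at least 1 bp. The TSS was that of the coding isoform with the longest genomic span. A peak was said to overlap, hold or share another coding promoter by the same rule, applied to the TSS of the other gene. Of the 61 genes, 56 were marked, or 91.8% (95% Wilson interval 82.2 to 96.4%). The intervals cover counting error only and take each gene as 1 count. Over all protein-coding genes, 10674 of 21853 promoters were marked, or 48.8%. The TSS itself lay inside a peak at 55 of the 61 genes, or 90.2% (80.2 to 95.4%), compared with 44.2% of all protein-coding genes. Each of the 56 marked promoters had its own peak, and no peak was shared by a pair of these genes. The 5 genes with no listed peak were Taf5, Taf9b, Polr1d, Gtf2a1l and Tbpl2.

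**Figure D1:**
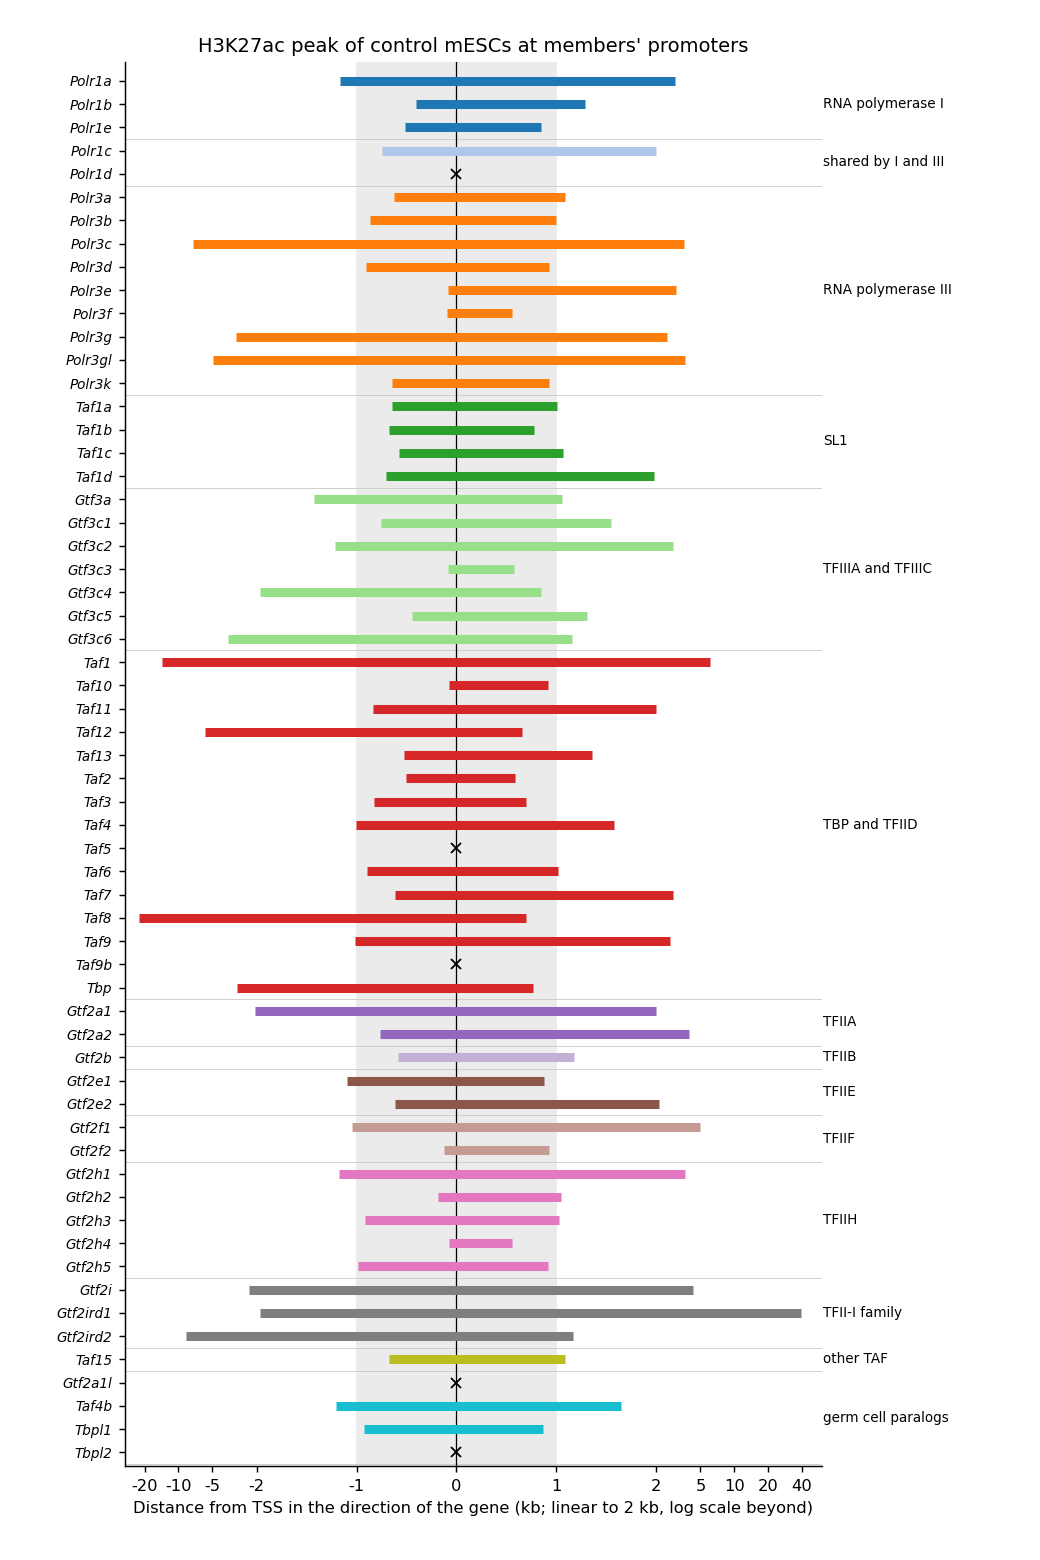
Extent of the control H3K27ac peak at the promoters of 60 of the 61 genes, grouped by complex. The horizontal axis is the distance from the TSS in kb in the direction of the gene, linear to 2 kb and logarithmic beyond, each bar is 1 peak, the grey band is the window of 1 kb on either side, and a cross marks a gene without a peak there. The bars of 55 genes cross the TSS, and 5 genes have a cross.

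The core subunits of the polymerases were marked almost throughout. The 3 genes of RNA polymerase I found by the rule, Polr1a, Polr1b and Polr1e, were all marked. Polr1a, the largest subunit, had a peak of 4134 bp, from 1164 bp upstream to 2969 bp downstream of the TSS. Polr1b, the second largest, had one of 1698 bp, and Polr1e, of the heterodimer that resembles TFIIF, one of 1366 bp. All 10 genes of RNA polymerase III were marked as well. Its largest subunits, Polr3a and Polr3b, had peaks of 1711 bp and 1866 bp, about as wide as that of Polr1b. Polr1c and Polr1d encode the pair of subunits that both enzymes share. They differed, as Polr1c had a peak of 2763 bp over its TSS and Polr1d had none within 1 kb of any of its 3 annotated coding isoforms.

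Polr3g and Polr3gl encode alternative forms of one RNA polymerase III subunit, of which the Polr3g form is known for its abundance in pluripotent cells and the Polr3gl form for its use in most tissues. Both promoters were marked, and both peaks were wide. The Polr3g peak measured 5578 bp, from 3036 bp upstream to 2541 bp downstream, and the Polr3gl peak 8537 bp, from 4893 bp upstream to 3643 bp downstream. Each of these peaks also overlapped the promoter of another coding gene, Mblac2 and Ankrd34a, respectively. Since the list has no heights, it gives no measure of how strongly the pair was acetylated relative to each other.

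All 4 TAFs of SL1 were marked, and so were all 7 genes of TFIIIA and TFIIIC. The SL1 peaks measured 1451 bp at Taf1b, 1650 bp at Taf1c, 1658 bp at Taf1a and 2688 bp at Taf1d, and the first 3 were thus close in width. Those of TFIIIA and TFIIIC ranged from 666 bp at Gtf3c3 to 4770 bp at Gtf3c6, with a median of 2482 bp, which was the width at Gtf3a. Gtf3a encodes TFIIIA, the zinc finger protein that recognizes the 5S ribosomal RNA gene, and its TSS lies 128891 bp from that of the unmarked Polr1d on chromosome 5.

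Among the factors of RNA polymerase II, 12 of 12 genes of TFIIA, TFIIB, TFIIE, TFIIF and TFIIH were marked. Gtf2a1 and Gtf2a2, the large and small subunits of TFIIA, had peaks of 4082 bp and 4749 bp, and Gtf2b had one of 1774 bp. The peaks of the TFIIE genes measured 1974 bp (Gtf2e1) and 2740 bp (Gtf2e2). Within TFIIF the pair was unequal, with 5987 bp at Gtf2f1, whose peak also covered the promoter of Gm17949, and 1053 bp at Gtf2f2. The 5 core TFIIH genes ranged from 632 bp at Gtf2h4 to 4790 bp at Gtf2h1. TFIID was marked at 13 of 15 genes. Tbp had a peak of 3755 bp, and the marked TAFs ranged from 999 bp at Taf10 to 23295 bp at Taf8. The TFII-I family was marked at 3 of 3 genes and Taf15 had a peak of 1757 bp. When the midpoint of the peak had to lie in the window, a condition that wide or one-sided peaks miss, TBP and TFIID were marked at 8 of 15 genes (53.3%) and the TFII-I family at 1 of 3 (33.3%), against 34.7% of all coding genes. Under the same condition TFIIA and TFIIF were marked at 1 of 2 genes each and TFIIH at 4 of 5.

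**Figure D2:**
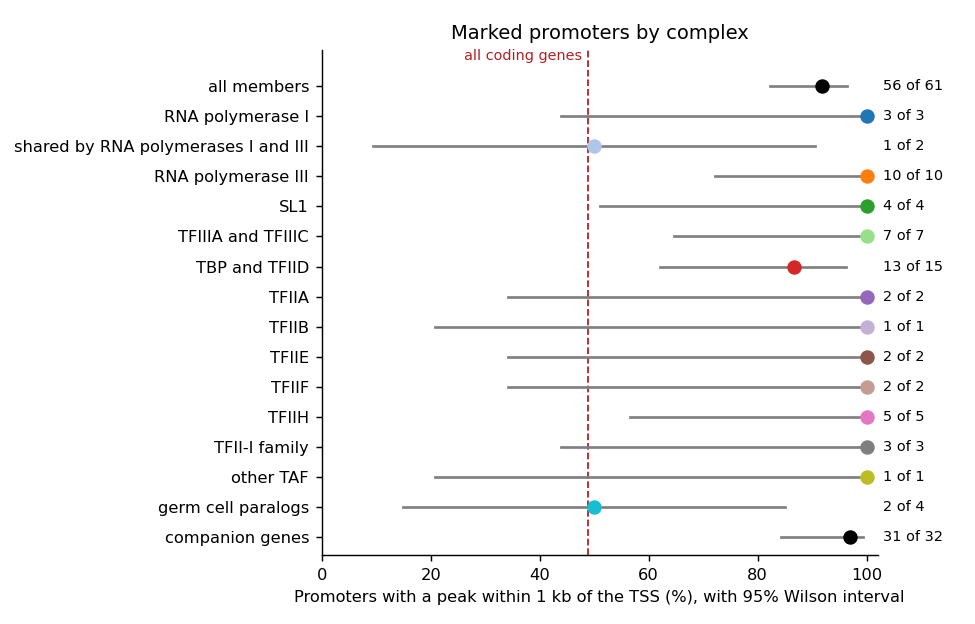
Share of promoters with a control H3K27ac peak within 1 kb of the TSS, by complex. Points are percentages, grey lines are 95% Wilson intervals for counting error, the counts stand at the right, and the dashed line is the share over all protein-coding genes (48.8%). Every complex is at 100% except TBP and TFIID (13 of 15), the subunits shared by polymerases I and III (1 of 2) and the germ cell paralogs (2 of 4), and the intervals of the small groups are wide.

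The 4 paralogs known mainly from germ cells were set apart. Tbpl1, a TBP paralog required in spermatids but also found in other cells, had a peak of 1794 bp, and Taf4b, a Taf4 paralog of the gonads, one of 2862 bp. Tbpl2, the TBP paralog of oocytes, and Gtf2a1l, the TFIIA paralog of male germ cells, had none. Without these paralogs, 54 of 57 promoters were marked, or 94.7% (85.6 to 98.2%). The peak of Tbp, of 3755 bp, was wider than that of Tbpl1, and in the TAF4 pair the widths were close, at 2584 bp for Taf4 and 2862 bp for Taf4b. In the TAF9 pair, both of which encode histone-fold subunits, Taf9 had a peak of 3701 bp that also overlapped the promoters of Ak6 and Rad17, while Taf9b had none.

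The 5 unmarked promoters differed in how far they lay from a peak. Polr1d was the closest, with a peak of 1722 bp that started 8541 bp downstream of the TSS, inside the gene (chr5:147086089-147087810). The TSS of Taf5, a WD40-repeat subunit at the core of TFIID, was 16810 bp from a peak of 7303 bp upstream at the promoter of Pcgf6 (chr19:47043634-47050936). That of Taf9b was 17897 bp from a peak of 21658 bp at the promoter of Pgk1 (chrX:106181604-106203261). The nearest peak to Gtf2a1l was 37750 bp upstream, in the gene Ston1, and the nearest to Tbpl2 was 188165 bp downstream. None of the 5 genes was marked at any of its annotated coding isoforms, of which Polr1d and Taf9b have 3 each, Gtf2a1l and Tbpl2 2 each and Taf5 1. Their TSSs in the RefSeq annotation, which lay within 202 bp of those used here, had no listed peak within 1 kb either. From the list it cannot be told whether these promoters had no H3K27ac, fell below the authors' height limits, lay away from an ATAC-seq summit, or lack a listed peak for another reason.

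The promoter sequences of the 5 unmarked genes are shown from 250 bases before to 49 bases after the TSS, 5′ to 3′ on the strand of the gene, because these promoters are the exceptions in the set. They were read from the GRCm38.p6 genome at chr19:47067496-47067795 (Taf5, + strand), chrX:106221109-106221408 (Taf9b, − strand), chr5:147077298-147077597 (Polr1d, + strand), chr17:88668410-88668709 (Gtf2a1l, + strand) and chr2:24096546-24096845 (Tbpl2, − strand). Capitals mark matches, on either strand, to the motifs named further on.
Taf5: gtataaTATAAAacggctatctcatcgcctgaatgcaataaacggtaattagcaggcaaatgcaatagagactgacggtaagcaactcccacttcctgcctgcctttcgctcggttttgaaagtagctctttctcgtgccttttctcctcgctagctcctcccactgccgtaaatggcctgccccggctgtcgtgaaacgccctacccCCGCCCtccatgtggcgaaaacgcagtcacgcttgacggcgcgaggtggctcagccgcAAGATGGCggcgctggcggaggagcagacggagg
Taf9b: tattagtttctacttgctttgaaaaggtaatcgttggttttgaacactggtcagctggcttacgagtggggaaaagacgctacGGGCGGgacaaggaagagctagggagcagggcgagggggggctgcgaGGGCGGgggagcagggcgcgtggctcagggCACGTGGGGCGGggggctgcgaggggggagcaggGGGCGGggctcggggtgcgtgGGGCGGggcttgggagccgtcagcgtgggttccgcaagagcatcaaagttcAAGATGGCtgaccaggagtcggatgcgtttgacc
Polr1d: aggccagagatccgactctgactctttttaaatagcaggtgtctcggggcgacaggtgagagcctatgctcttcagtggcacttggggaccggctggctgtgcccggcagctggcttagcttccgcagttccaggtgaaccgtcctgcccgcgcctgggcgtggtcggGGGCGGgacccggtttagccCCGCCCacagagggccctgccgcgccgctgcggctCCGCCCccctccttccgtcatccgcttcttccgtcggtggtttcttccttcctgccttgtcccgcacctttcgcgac
Gtf2a1l: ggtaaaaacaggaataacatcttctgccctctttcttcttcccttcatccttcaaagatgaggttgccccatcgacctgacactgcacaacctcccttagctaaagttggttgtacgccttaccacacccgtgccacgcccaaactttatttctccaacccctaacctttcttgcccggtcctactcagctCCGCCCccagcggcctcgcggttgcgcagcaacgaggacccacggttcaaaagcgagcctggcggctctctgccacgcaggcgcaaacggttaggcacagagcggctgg
Tbpl2: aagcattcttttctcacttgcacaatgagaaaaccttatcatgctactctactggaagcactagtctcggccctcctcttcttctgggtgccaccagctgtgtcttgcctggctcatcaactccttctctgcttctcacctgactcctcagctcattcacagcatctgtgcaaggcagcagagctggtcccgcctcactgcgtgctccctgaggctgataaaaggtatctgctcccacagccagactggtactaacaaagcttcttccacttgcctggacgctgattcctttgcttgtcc

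The Tbpl2 window held no match to any of the 9 motifs and 4 CG dinucleotides, whereas Taf5 held 24, Taf9b 22, Polr1d 26 and Gtf2a1l 18. Taf9b had 5 GC boxes and Polr1d 3, and both Taf5 and Taf9b had the YY1 motif AAGATGGC 16 bases downstream of the TSS. The windows of 3 marked paralogs or partners are shown for comparison, at chr17:15499638-15499937 (Tbp, + strand), chr12:91589960-91590259 (Gtf2a1, − strand) and chr13:100651357-100651656 (Taf9, + strand).
Tbp: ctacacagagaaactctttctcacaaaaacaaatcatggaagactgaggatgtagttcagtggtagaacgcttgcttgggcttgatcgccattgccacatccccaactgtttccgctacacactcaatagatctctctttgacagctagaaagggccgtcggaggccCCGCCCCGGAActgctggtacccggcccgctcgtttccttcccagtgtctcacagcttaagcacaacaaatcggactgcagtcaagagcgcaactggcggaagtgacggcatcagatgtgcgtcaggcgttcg
Gtf2a1: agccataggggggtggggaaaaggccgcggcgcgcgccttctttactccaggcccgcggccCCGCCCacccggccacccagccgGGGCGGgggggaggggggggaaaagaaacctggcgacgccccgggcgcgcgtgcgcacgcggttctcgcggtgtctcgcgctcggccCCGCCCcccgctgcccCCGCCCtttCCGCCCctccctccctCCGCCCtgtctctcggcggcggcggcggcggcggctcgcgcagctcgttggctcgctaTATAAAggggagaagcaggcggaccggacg
Taf9: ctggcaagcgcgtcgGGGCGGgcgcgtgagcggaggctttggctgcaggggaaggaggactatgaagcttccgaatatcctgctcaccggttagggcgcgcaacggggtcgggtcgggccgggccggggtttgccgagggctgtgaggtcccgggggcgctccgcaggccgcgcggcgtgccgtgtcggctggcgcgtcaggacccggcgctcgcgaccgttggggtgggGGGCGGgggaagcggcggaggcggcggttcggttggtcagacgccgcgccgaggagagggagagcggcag

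Gtf2a1 held 44 CG dinucleotides and 6 GC boxes where Gtf2a1l held 18 and 1. Tbp held 17, against 4 in Tbpl2, with a GC box and an ETS motif that overlap by 1 base. Taf9 held 44, against 22 in Taf9b, but fewer GC boxes (2 against 5).

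Promoters in the mouse are often CpG islands, stretches rich in G, C and the CG dinucleotide. A promoter was called CpG-rich here when the 500 bp on either side of the TSS had more than 50% G + C and an observed over expected CpG ratio above 0.6. Of the 61 genes, 49 were CpG-rich, or 80.3% (68.7 to 88.4%), compared with 45.9% of all protein-coding genes. Of these 49, 47 were marked (95.9%), where the share over all CpG-rich coding promoters was 81.3%. Of the other 12, 9 were marked (75.0%, 46.8 to 91.1%), where the share over all other coding promoters was 21.3%. The marked ones without CpG richness were Gtf2h4, Gtf3c3, Polr1b, Polr1e, Polr3gl, Taf13, Taf1b, Taf6 and Taf7. Taf13 and Taf7 missed the limits by G + C alone, at 48.9% and 49.4%. The ratios of the others ran from 0.463 (Gtf2h4) to 0.599 (Taf6). Over all coding genes the lower quartile of the ratio was 0.223, so the other coding promoters include many poorer in CpG than these 9. Both Taf5 and Polr1d were CpG-rich and unmarked. Taf5 had 61.3% G + C and a ratio of 0.967, and Polr1d 61.6% and 0.656. Taf9b missed the limit by its 48.8% G + C with a ratio of 0.849, Gtf2a1l by its ratio of 0.497, and Tbpl2 had the lowest ratio of the 61 genes, 0.115.

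**Figure D3:**
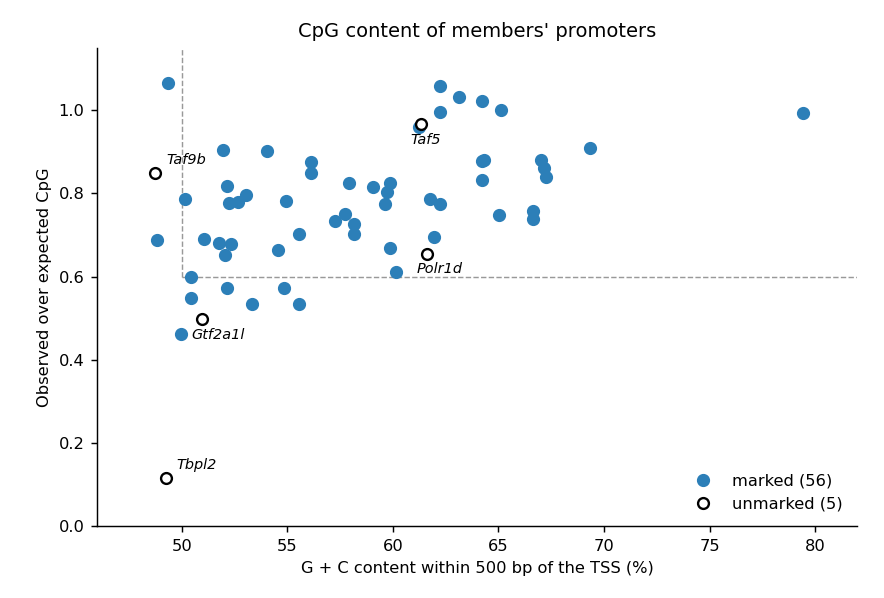
G + C content (horizontal axis, %) and observed over expected CpG ratio (vertical axis) within 500 bp of the TSS, 1 point per gene. Filled points are the 56 marked genes, open points the 5 unmarked ones, and dashed lines bound the CpG-rich class at the upper right. Taf5 and Polr1d lie among marked genes, while Tbpl2 stands apart at a ratio of 0.115.

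The peaks of the marked genes had a median width of 2394 bp, with quartiles of 1688 and 4095 bp and a range from 632 to 41585 bp. Over all marked protein-coding genes the median was 2174 bp and the quartiles were 1558 and 4832 bp. Of the 56 genes, 11 lay below the lower quartile of marked coding genes, 16 between it and the median, 19 between the median and the upper quartile and 10 above the latter. The median among the 35 peaks that held no other coding promoter was 1774 bp, compared with 1983 bp for all coding genes, so that the set lay slightly above the background with shared peaks and slightly below it without them. Peaks wider than 10 kb were found at 4 of 56 genes (7.14%), against 10.8% of all marked coding genes, and peaks under 1 kb at 5 (8.93%), against 10.6%.

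Gtf2ird1 had the widest peak, of 41585 bp (chr5:134417095-134458679), which ran from 1963 bp upstream to 39621 bp downstream and covered 40.0% of the gene. It was wider than the peaks of 99.3% of marked coding genes. The other members of the TFII-I family lie on the same stretch of chromosome 5, with 130733 bp between the TSSs of Gtf2ird2 and Gtf2i and 141956 bp between those of Gtf2i and Gtf2ird1. Their peaks were also in the wide range, at 6623 bp for Gtf2i and 9765 bp for Gtf2ird2, the latter shared with the promoter of Rcc1l. Taf8 had a peak of 23295 bp (chr17:47501591-47524885), of which 22598 bp lay upstream and overlapped the promoter of the cyclin gene Ccnd3. Taf1, the largest TAF, had one of 20248 bp (chrX:101518616-101538863) with 14125 bp upstream, and Polr3c one of 10954 bp shared with Rnf115.

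The narrowest peaks described here were those of Gtf2h4 (632 bp), Polr3f (648 bp), Gtf3c3 (666 bp) and Taf10 (999 bp). They were alike in position. Upstream of the TSS they reached at most 93 bp, and downstream they ended between 554 and 920 bp. These 4 peaks belonged to a TFIIH core subunit, a subunit of RNA polymerase III, a TFIIIC subunit and a TAF, each of another complex.

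**Figure D4:**
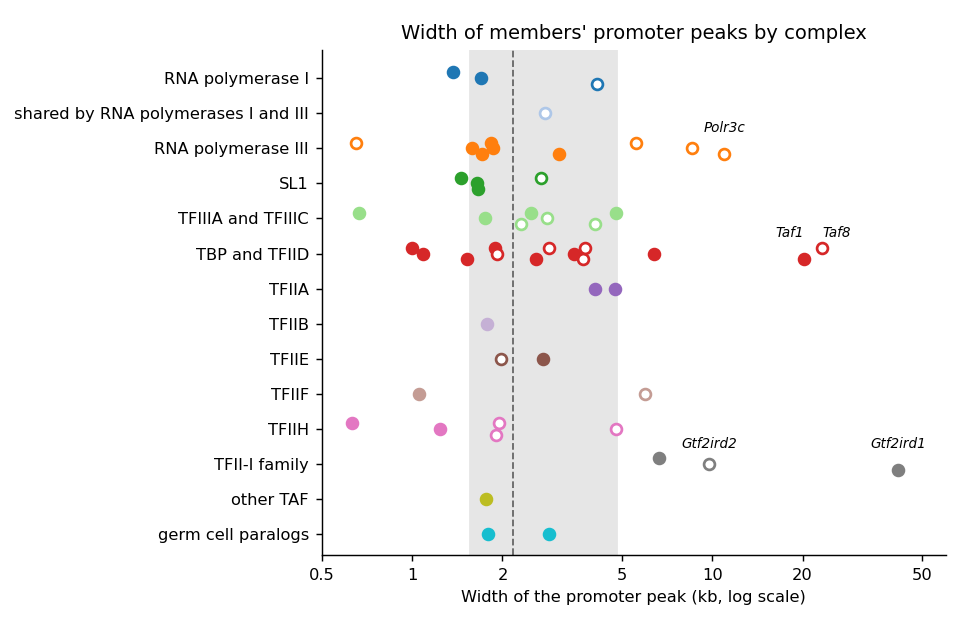
Width of the promoter peaks of 55 marked genes in kb on a logarithmic axis, by complex. Open points are peaks that also overlap the promoter of another coding gene, the grey band spans the quartiles over all marked coding genes (1558 to 4832 bp) and the dashed line is their median (2174 bp). The 3 TFII-I genes lie to the right of the band, and the 5 named genes have the widest peaks.

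Around the TSS the marked genes were covered much like marked coding genes in general. At 500 bp upstream, 82.1% of the 56 genes had a peak, compared with 74.4% of all marked coding genes, and at 500 bp downstream 100%, compared with 92.9%. Counting any listed peak, the shares covered at 5 kb downstream were 3.57% and 16.1%, and at 5 kb upstream 12.5% and 13.4%. The promoter peak itself reached at least 3 kb downstream at 8 of the 56 genes (14.3%), compared with 21.3% of all marked coding genes, and at least 5 kb at 2 of them (3.57%), Taf1 and Gtf2ird1, compared with 13.0%. It reached 5 kb upstream at 5 genes (8.93%), compared with 8.78%. The peak reached further downstream than upstream at 40 of 56 genes (71.4%), compared with 67.6% of marked coding genes. All 56 peaks reached past the end of the first exon, as did 94.3% over all marked coding genes, and 40 touched no more than 1 exon (71.4%, the same as over all marked coding genes). By length, a median of 49.2% of a peak lay in introns, 10.8% in exons and 36.9% outside the isoform, compared with 42.2%, 11.1% and 40.6%.

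**Figure D5:**
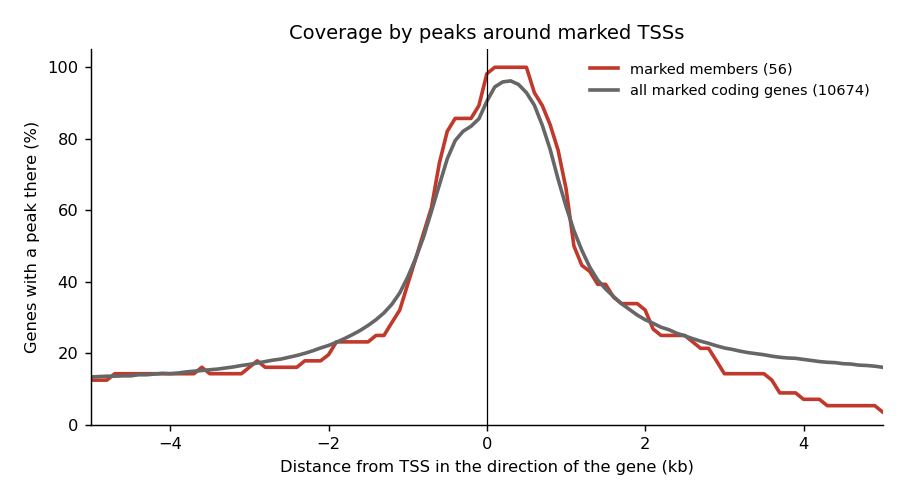
Share of genes with a listed peak at each distance from the TSS (horizontal axis, kb in the direction of the gene), for the 56 marked genes and for all 10674 marked coding genes. Peaks other than that at the promoter are included. Upstream the curves stay near each other and cross, with 82.1% against 74.4% at -500 bp and 25.0% against 31.3% at -1300 bp. Both peak just downstream of the TSS, and beyond 3 kb downstream the curve of the 56 genes is lower, at 3.57% against 16.1% at 5 kb.

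Many of these genes start close to another gene. A coding gene on the opposite strand started within 1 kb upstream of 17 of the 61 TSSs, or 27.9% (18.2 to 40.2%), compared with 7.34% of all coding genes and 13.6% of marked ones. This property comes from the annotation alone. The distances were under 100 bp for 9 pairs: Gtf2h3 with Eif2b1 (9 bp), Polr1c with Yipf3 (26 bp), Taf6 with Cnpy4 (34 bp), Polr3c with Rnf115 (36 bp), Gtf2h5 with Serac1 (45 bp), Taf11 with Anks1 (64 bp), Gtf2h1 with Hps5 (76 bp), Gtf2e1 with Rabl3 (96 bp) and Gtf3c4 with Ddx31 (99 bp). Tbp and Psmb1, a proteasome gene, started 137 bp apart. Of the 17 genes 16 were marked (94.1%, 73.0 to 99.0%), near the 90.3% of all coding genes with such a partner. The exception was Polr1d, whose partner Lnx2 started 962 bp away. Of the 44 genes without such a partner, 40 were marked (90.9%), where the share over all coding genes without one was 45.6%. At 15 of the 16 marked genes the partner's TSS lay inside the same peak, so that the mark cannot be assigned to 1 gene of the pair, and the exception was Polr3f. In all, the peaks of 21 of the 56 marked genes (37.5%, 26.0 to 50.6%) overlapped another coding promoter, against 26.5% over all marked coding genes. Such a peak overlapped the 1 kb on either side of the other TSS and, as at Polr3f, need not reach that TSS.

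Further peaks, apart from that at the promoter, overlapped 19 of 61 genes (31.1%, 20.9 to 43.6%), compared with 21.9% of all coding genes. Among marked genes the shares were close, with 18 of 56 (32.1%) in the set and 29.9% of all marked coding genes. There were 25 such peaks, from 201 to 31424 bp wide. Polr3b had 4, between 17823 and 99973 bp downstream of its TSS. Taf3, whose protein binds H3K4me3, had 2, as did Gtf2f2 and Gtf2ird1. The widest, of 31424 bp, started 12036 bp downstream of the Polr3gl TSS. At 9 of the 56 marked genes (16.1%) some annotated coding isoform started where no peak lay within 1 kb, compared with 25.1% of all marked coding genes. Among them was Taf3, of whose 4 coding isoforms 1 was marked.

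Short sequence motifs were counted in the windows from 250 bases before to 49 bases after the TSS, on both strands. The motifs were the TATA box (TATAAA), the GC box (GGGCGG), the CCAAT box (CCAAT), the core of the ETS motif (CCGGAA), the E-box (CACGTG) and motifs of NRF1 (GCGCATGCG), YY1 (AAGATGGC) and ZNF143 (ACTACAATT), with the element CTCGCGAG. The ETS core was found at 30 of 61 genes, or 49.2% (37.1 to 61.4%). It was present in 18.1% of all coding promoters, in 29.9% of marked and in 29.2% of CpG-rich ones. The 30 genes that held it were marked, as were 26 of the 31 without it (83.9%). Over all coding genes 80.8% of the promoters with the core were marked and 41.8% of those without it. In the set this split rests on 5 unmarked genes and was not particular to ETS. All 19 genes with the CCAAT box were marked too, against 37 of 42 without it. Over all coding genes 48.9% with that box and 48.8% without it were marked. With the YY1 motif 5 of 7 genes of the set were marked, against 51 of 54 without it. By complex the ETS core was found at 5 of 7 genes of TFIIIA and TFIIIC, 3 of 4 of SL1, 3 of 5 of TFIIH, 8 of 15 of TBP and TFIID, 4 of 10 of RNA polymerase III, 1 of 3 of RNA polymerase I and 1 of 3 of the TFII-I family. TFIIA, TFIIF and the pair shared by both polymerases held it at 1 of 2 genes each, the germ cell paralogs at 2 of 4, and TFIIB, TFIIE and Taf15 at none.

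The E-box was found at 13 genes (21.3%), compared with 7.74% of all and 10.8% of marked coding promoters, and the YY1 motif at 7 (11.5%), compared with 3.06% and 5.06%. The 7 were Gtf2e1, Gtf3c6, Polr3d, Taf4, Taf8 and the unmarked Taf5 and Taf9b. The GC box was found at 41 genes (67.2%), close to the 66.3% of marked coding promoters and above the 45.0% of all. The letters of the TATA box were found at 7 genes (11.5%), compared with 12.4% of all and 6.43% of marked coding promoters, and the CCAAT box at 19 (31.1%), compared with 38.7% and 38.8%. TATAAA was counted anywhere in the window. In the windows shown it started at -244 from the TSS at Taf5 and at 20 at Gtf2a1. NRF1 was matched at Gtf2f1 and Taf1a, ZNF143 at Gtf2h4 and CTCGCGAG at none of the 61. The shares of all coding promoters with these 3 motifs were 2.47%, 0.531% and 1.24%, and of marked ones 3.69%, 0.806% and 2.20%. Gtf2f2, Taf6 and Tbpl2 matched none of the 9 motifs. A match is a string of letters and not evidence of binding.

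Proteins of the same machinery whose genes carry other symbols gave a similar count. Of 32 such genes, 31 were marked, or 96.9% (84.3 to 99.4%), where the share over all coding genes was 48.8%. They comprised 3 further subunits of RNA polymerase I (Znrd1, Twistnb and Cd3eap), Crcp of RNA polymerase III, 5 subunits common to the 3 polymerases, the RNA polymerase I factors Ubtf, Rrn3 and Ttf1, 4 factors of RNA polymerase III (the TFIIIB subunits Brf1, Brf2 and Bdp1, and the repressor Maf1), 5 genes of SNAPc, which binds the promoters of small nuclear RNA genes, 5 further TFIIH genes, 3 TAF paralogs and 3 regulators of TBP. The unmarked one was Taf7l, the Taf7 paralog best known from male germ cells. The widest peaks here were those of Polr2e (30254 bp), Taf5l (12106 bp), Cdk7 (11644 bp), Ubtf (11174 bp) and Cd3eap (11078 bp), and the narrowest those of Ercc2 (779 bp) and Brf2 (782 bp). Taf5l, whose product takes the place of TAF5 in the coactivator complex SAGA, was marked, whereas Taf5 was not.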

How the data were processed

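H3K27ac ChIP-seq was performed in 6 samples of mESCs, and the file used was the deposited list of control peaks, pooled over both replicates, with positions in mm10. Per the methods, the authors trimmed adapters (Cutadapt), aligned reads to a combined mouse and human reference (bwa meme), discarded duplicates (Picard 2.9.1) and reads of low mapping quality (samtools 1.4), and called peaks with LanceOtron. Neighbouring peaks were joined (Bedtools), and those of low height or distant from an ATAC-seq summit were dropped. Which promoters are unmarked can depend on these filters.

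Peaks were compared here with GENCODE release M21 (GRCm38) and the GRCm38.p6 sequence, with coordinates counted from 1. For each gene the widest peak in the promoter window was taken. Of the 61 genes, 54 had a RefSeq TSS in the table of promoters used for comparison. Shares have 95% Wilson intervals, and the values over all coding genes are given beside them. No test was made, since 1 pooled list has no replicates. The genes, complexes, companion genes and motifs were chosen with earlier results of these data known. The genes named with values were those without a peak, the 5 widest and 5 narrowest peaks, listed paralogs and largest subunits, divergent pairs and genes with further peaks. The values of 1 gene of the set are not reported here singly, though it is in the counts. The 6 markers of mESCs, the companion genes' widths and other named widths were chosen after the data were seen. The overlap functions were tested on simulated peaks. Alternatives were other windows, isoforms, overlaps and peak widths. Python 3.11.15, pandas 2.3.3, scipy 1.17.1 and pysam 0.24.0 were used.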

Additional observations from a re-analysis of the deposited data

How the results depend on the processing

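The share of marked genes kept its place above the share of all coding genes under each of the 9 alternatives for which both were computed. It was 91.8% with windows of 500 bp or 2 kb, all isoforms, APPRIS principal isoforms or an overlap of 500 bp, 90.2% with the isoform of longest spliced length, which lost Taf3, and 90.2% among the 41 genes with no other TSS within 2 kb. With peaks of at least 1 kb it was 83.6%, and at RefSeq TSSs, an alternative chosen after the data were seen, 90.7%. When the midpoint of the peak had to lie in the window, the share moved to 70.5% and that of the companion genes to 68.8%, while the share over all coding genes was 34.7%. The median width of the promoter peaks was 1774 bp without peaks that hold another coding promoter and between 2394 and 2482 bp under the other alternatives. Of 112 values for single complexes under alternatives, 110 stayed within the counting interval, as did 17 of 18 for motifs. The exceptions were TBP and TFIID (53.3%) and the TFII-I family (33.3%) by midpoint, and the GC box (78.7%) in windows to 250 bases after the TSS. For the complexes this tally is no evidence of stability, since the intervals of the small groups are too wide to be left easily. By midpoint TFIIA and TFIIF each fell from 2 of 2 genes to 1 of 2 and still stayed within. RNA polymerase III, TFIIH, and TFIIIA with TFIIIC were also marked less often by midpoint and stayed within. No paired analysis was possible because the single list pools the replicates, and for the same reason no replicate could be left out. The list gives no depth, so how many unmarked promoters lie just below the authors' limits is unknown.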
